A study of Mus musculus with 12 samples.

Results

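The coinhibitory and CD28 family receptors described here are 10 genes taken from a probe-to-gene table by symbol: *Ctla4*, *Icos*, *Cd28*, *Pdcd1*, *Tigit*, *Lag3*, *Btla*, *Cd200*, *Cd86* and *Havcr2*. They are 10 of the 19057 genes and their 16 probes are among the 45281 probes of the Illumina Mouse WG-6 v2 array. All 10 genes passed the filter on low values. *Pdcd1* did not exceed background on any array, *Havcr2* did so on 1 array and *Tigit* on 5 arrays, so that the statements below rest mainly on the other 7.

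The 12 arrays held RNA of mouse CD4+ T cells, all of them from *Foxp3*-GFP reporter mice, in which green fluorescence marks cells that express the Treg cell factor *Foxp3*. Treg HAR cells (4 arrays) were grown with harmine, an inhibitor of DYRK kinases from plants, and a low concentration of TGF-β. Treg hi cells (4 arrays) were grown with a high concentration of TGF-β and no harmine. Naive CD4+CD62L+ T cells (4 arrays) were the starting population and were not cultured. In each treatment the naive precursors of 2 arrays had been purified by fluorescence-activated sorting (FACS) and those of 2 arrays on magnetic columns (MACS), and the GFP+ cells of both Treg groups were then sorted by FACS at day 4. Both Treg cultures were stimulated through CD3 and CD28, with blocking antibodies against the cytokines of other T helper fates, per the study's methods. They were also fed with medium that held interleukin 2. Against naive cells, stimulation, culture, interleukin 2 and TGF-β therefore cannot be told apart, and since low TGF-β without harmine was not among the arrays, neither can harmine and the TGF-β dose. The labels do not say whether replicates were separate mice or cultures. For naive cells the sex-linked genes differed by replicate number: the female transcript *Xist* had 8.19 (FACS) and 8.47 (MACS) on replicates 1 and 5.76 (FACS) and 5.84 (MACS) on replicates 2, while the Y-linked *Eif2s3y* was above background on replicates 2 alone, so replicates 1 and 2 of naive cells came from different mice. All 8 Treg arrays had *Xist* at 8.98 to 10.49, with *Eif2s3y* above background on 4 of them. In Treg hi cells these were replicates 2 alone (6.44 for FACS and 6.97 for MACS), as in naive cells. The Treg hi replicates thus differed in this signal as well. In Treg HAR cells they were both MACS arrays (6.99 and 6.38) and neither FACS array. For the Treg arrays the p-values may in part reflect technical variation.

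CD28 is the main costimulatory receptor of T cells and binds CD80 and CD86 on antigen-presenting cells. CTLA-4 binds the same ligands more tightly, removes CD80 and CD86 from neighbouring cells, and is needed for suppression by Treg cells, whereas the related receptor ICOS gives a costimulatory signal through its own ligand. PD-1, BTLA, TIGIT, LAG-3 and TIM-3 (encoded by *Pdcd1*, *Btla*, *Tigit*, *Lag3* and *Havcr2*) dampen T cell activation through separate ligands, and CD200 is a surface glycoprotein that inhibits myeloid cells through the CD200 receptor. In RefSeq (GRCm38.p6), *Cd28*, *Ctla4* and *Icos* follow each other on chromosome 1 with 0 protein-coding genes between neighbours, and *Btla* and *Cd200* are neighbours on chromosome 16.

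The 250 bases before a listed start site were available for 6 of the 10 genes (*Ctla4*, *Pdcd1*, *Tigit*, *Btla*, *Cd200* and *Havcr2*) in RefSeq (GRCm38.p6). Those of *Ctla4* and *Btla* are printed because these genes moved in opposite directions in both Treg groups. They lie at chr1:60908775-60909024 (plus strand) and chr16:45224087-45224336 (plus strand), and run 5′ to 3′ towards the listed start site. The *Ctla4* stretch ends just before the gene, which begins at 60909025. The *Btla* stretch lies inside the span of its gene (45223705 to 45252895), so it is not the sequence before the outermost start.
Ctla4: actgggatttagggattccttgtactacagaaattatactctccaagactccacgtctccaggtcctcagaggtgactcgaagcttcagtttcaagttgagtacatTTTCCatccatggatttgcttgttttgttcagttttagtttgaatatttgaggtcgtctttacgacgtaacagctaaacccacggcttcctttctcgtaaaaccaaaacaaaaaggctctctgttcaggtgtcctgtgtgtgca
Btla: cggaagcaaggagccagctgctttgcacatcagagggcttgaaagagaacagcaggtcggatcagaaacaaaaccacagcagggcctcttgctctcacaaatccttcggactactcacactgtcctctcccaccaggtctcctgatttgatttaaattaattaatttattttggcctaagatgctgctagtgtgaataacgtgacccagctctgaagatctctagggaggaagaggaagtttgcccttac
Capitals mark matches to 3 short motifs searched on both strands: the core GGAAA recognised by NFAT, a factor activated by T cell receptor signals, TGANTCA recognised by AP-1, and CAGAC, which SMAD factors downstream of TGF-β recognise. The *Ctla4* stretch held 1 match, to the NFAT core on the minus strand (TTTCC on the printed strand), and the *Btla* stretch held 0 matches. These letters are common: of 32851 promoters of the same length, 55.6% held GGAAA, 6.75% TGANTCA and 42.2% CAGAC. A match is a description of the letters and not a bound site.

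The array values were even across samples, with 29.9% to 30.2% of the probes above the background ceiling on each array (a log2 level of 6.22 to 6.23). Correlations were 0.980 to 0.992 between replicates and nearly the same, 0.978 to 0.991, between Treg HAR and Treg hi arrays. *Cd3e* was bright on all arrays, with log2 levels of 11.81 to 12.03 in Treg HAR cells, 11.80 to 12.32 in Treg hi cells and 12.29 to 12.86 in naive cells, and *Cd4* was above background on all 12 arrays. Of the CD8 genes, the 2 probes of *Cd8a* did not pass the filter, whereas *Cd8b1* was above background on all 12 arrays, with 10.37 to 10.59 in Treg HAR cells, 10.11 to 10.39 in Treg hi cells and 9.38 to 9.63 in naive cells. *Il2ra*, the interleukin 2 receptor chain of Treg cells, reached 9.56 to 10.32 in Treg HAR cells and 9.04 to 9.52 in Treg hi cells and was above background on 0 naive arrays. *Foxp3* itself went against the labels: its brightest probe gave 6.71 to 7.40 in Treg HAR cells and 6.62 to 7.10 in Treg hi cells, against 7.09 to 7.42 in naive cells. Another of its 4 probes was above background on 2 Treg HAR, 3 Treg hi and 0 naive arrays. Among the 4 Treg HAR arrays, FACS replicate 2 and MACS replicate 1 were most alike (r = 0.993). FACS replicate 1 was as close to FACS replicate 2 as to MACS replicate 2 (r = 0.987 for each). A split into 2 pairs, FACS replicate 1 with MACS replicate 2 and FACS replicate 2 with MACS replicate 1, followed no label and was thus clear for 1 pair only. Values that turn on it are given below.

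**Figure D1:**
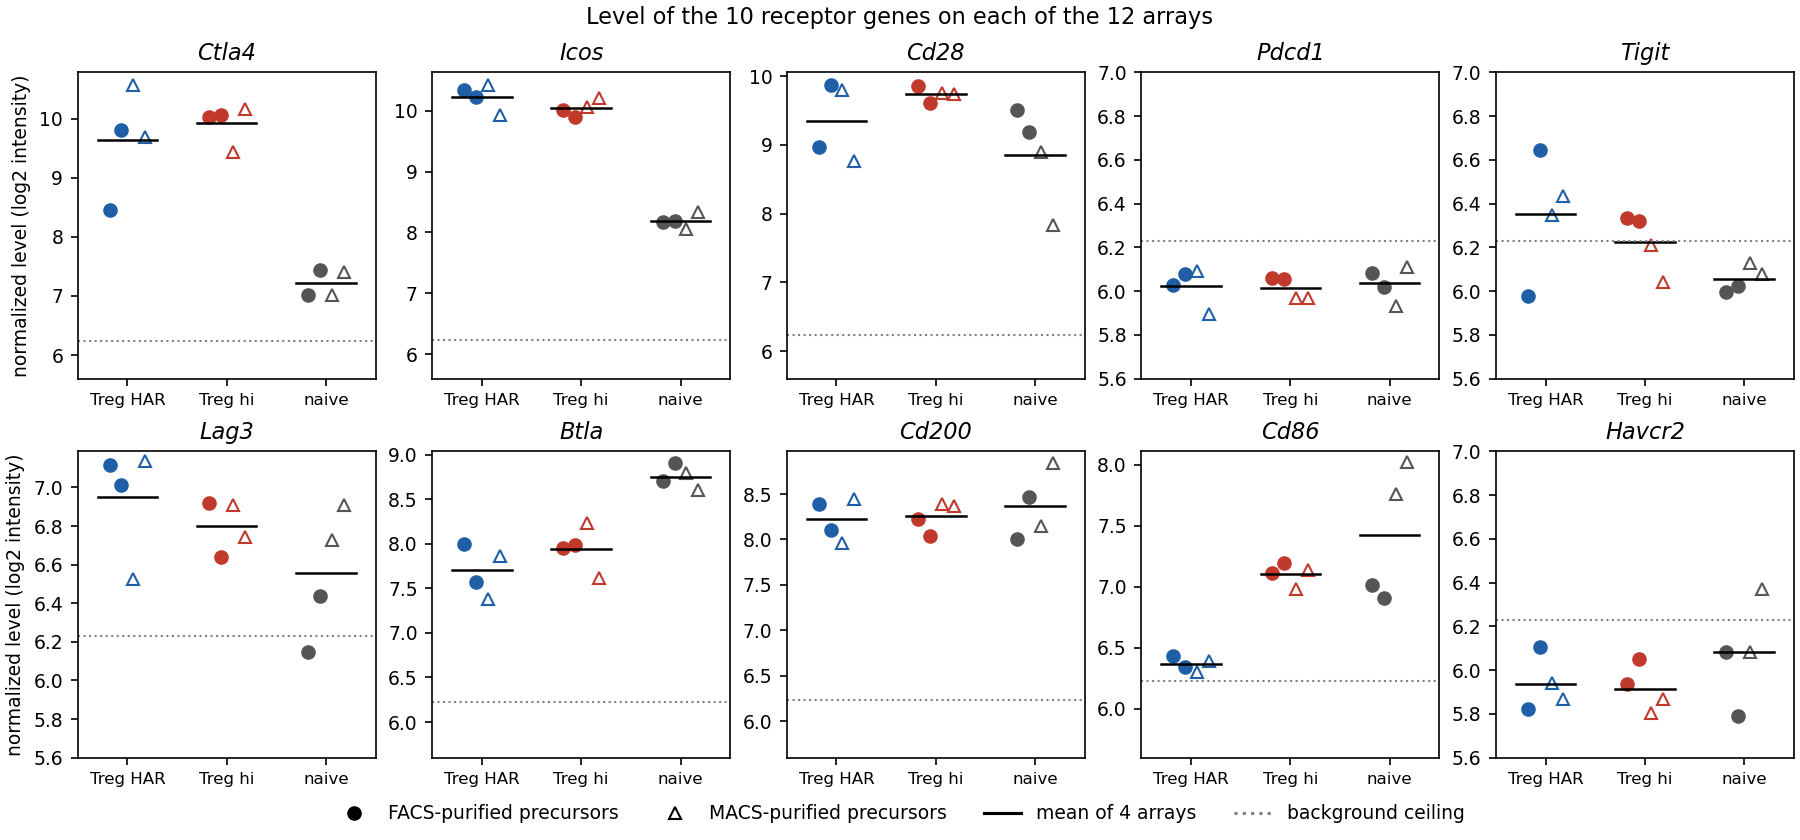
Normalized level (log2 intensity, vertical axis) of each of the 10 genes on the 12 arrays, by treatment (horizontal axis). Filled circles stand for FACS-purified and open triangles for MACS-purified precursors, bars for the mean of 4 arrays and the dotted line for the background ceiling of 6.23. All Treg HAR and Treg hi arrays lie above all naive arrays for *Ctla4* and *Icos* and below them for *Btla*, the Treg HAR arrays of *Cd86* lie between 6.30 and 6.43, below all others, and *Pdcd1* stays under the ceiling. In each comparison with naive cells, 26.7% of all genes showed no overlap of 4 arrays against 4.

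*Ctla4* and *Icos* were higher and *Btla* was lower in both kinds of Treg cells than in naive cells, and of the 10 genes only *Cd86* passed the test between Treg HAR and Treg hi cells, where it was lower in Treg HAR cells. Of the 10 genes, 4 passed an adjusted p of 0.05 (limma, Benjamini-Hochberg adjustment over 15663 genes) in Treg HAR versus naive cells, 2 higher and 2 lower, while 27.5% of all genes tested passed, 13.8% higher and 13.7% lower. In Treg hi versus naive cells 4 passed as well, again 2 higher and 2 lower, against 26% of all genes, with 12.8% higher and 13.2% lower. In Treg HAR versus Treg hi cells 1 of 10 passed, against 0.466% of all genes. The number changed against naive cells was therefore not far above that of genes in general, and both comparisons used the same 4 naive arrays. The median log2 difference of the 10 genes was -0.01 in Treg HAR versus Treg hi cells, 0.14 in Treg HAR versus naive cells and 0.07 in Treg hi versus naive cells, beside medians of -0.00097, -0.0078 and -0.005 for all genes.

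*Ctla4* had log2 levels of 8.46 and 9.82 (FACS) and 10.57 and 9.70 (MACS) in Treg HAR cells, 10.03 and 10.06 (FACS) and 9.43 and 10.16 (MACS) in Treg hi cells, and 7.02 and 7.44 (FACS) and 7.02 and 7.41 (MACS) in naive cells. Every Treg array lay above every naive array, and the 4 Treg HAR arrays were more spread than any other group. Such a separation from naive cells, in one direction or the other, is common here and for the genes below. In each of the 2 comparisons with naive cells, 26.7% of all genes and 4 of the 10 genes showed it. The log2 difference from naive cells was 2.41 ± 0.31 (SE, n = 4 arrays each) in Treg HAR cells, a 5.32-fold higher level with an adjusted p of 2.36e-04. It was 2.70 ± 0.31 in Treg hi cells, or 6.48-fold, with an adjusted p of 1.23e-04. Between Treg HAR and Treg hi cells *Ctla4* differed by -0.28 ± 0.31 (adjusted p = 0.884), and the 95% interval of -0.97 to 0.40 holds differences in either direction. On FACS replicate 1 and MACS replicate 2 the mean was 9.08, and on the other 2 Treg HAR arrays it was 10.19. The spread did not follow this split alone, since MACS replicate 2 (9.70) lay nearer to FACS replicate 2 (9.82) than to FACS replicate 1 (8.46). Without the first pair the difference from Treg hi cells was 0.27, and its sign is thus not settled. In RNA of a whole population, more cells that express a gene and more RNA per cell cannot be told apart, here and below.

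*Icos* gave 10.34 and 10.22 (FACS) and 10.42 and 9.93 (MACS) in Treg HAR cells, 10.01 and 9.90 (FACS) and 10.06 and 10.20 (MACS) in Treg hi cells, and 8.17 and 8.18 (FACS) and 8.06 and 8.34 (MACS) in naive cells. The groups of Treg cells overlapped with each other and both lay clear of naive cells. The difference from naive cells was 2.04 ± 0.11 in Treg HAR cells (4.11-fold, adjusted p = 9.24e-07) and 1.85 ± 0.11 in Treg hi cells (3.61-fold, adjusted p = 1.87e-06). Treg HAR cells differed from Treg hi cells by 0.19 ± 0.11 (95% interval -0.06 to 0.43, adjusted p = 0.654). A second probe of *Icos*, above background on 10 of 12 arrays, also passed the threshold over all probes, with 0.72 ± 0.17 in Treg HAR versus naive cells and 0.80 ± 0.17 in Treg hi versus naive cells, where 23.2% and 21.8% of all probes passed. Its signal was low, at most 7.46, and the offset of 50 added before the log compresses differences of dim probes.

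*Cd28* was expressed in all groups and its naive arrays varied. It had 8.97 and 9.87 (FACS) and 9.80 and 8.77 (MACS) in Treg HAR cells, 9.86 and 9.61 (FACS) and 9.75 and 9.73 (MACS) in Treg hi cells, and 9.51 and 9.19 (FACS) and 8.89 and 7.84 (MACS) in naive cells. The Treg hi arrays all lay above the naive arrays, while the Treg HAR arrays overlapped both groups. The difference was 0.50 ± 0.29 in Treg HAR versus naive cells (adjusted p = 0.279) and 0.88 ± 0.29 in Treg hi versus naive cells (adjusted p = 0.053), so neither passed. The second was 0.39 within FACS (adjusted p = 0.664) and 1.38 within MACS (adjusted p = 0.0467), and it lay near the threshold: it passed in 13 of 29 alternatives, among them those without naive MACS replicate 1 (1.15, adjusted p = 0.0161), without any single Treg HAR array (0.88, adjusted p = 0.0304 to 0.0402) and with *Eif2s3y* as a block (0.88, adjusted p = 0.0426). *Cd28* followed the split of the Treg HAR arrays, with means of 8.87 and 9.84 for the pairs with FACS replicate 1 and with FACS replicate 2. With only the pair that holds FACS replicate 2, the difference of Treg HAR from naive cells was 0.98 (adjusted p = 0.0278), and with only the other pair it was 0.01 (adjusted p = 0.985). Between Treg HAR and Treg hi cells the difference was -0.39 ± 0.29, with a 95% interval of -1.04 to 0.27.

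*Btla*, the receptor for the TNF receptor family member HVEM, ran the other way. It had 8.002 and 7.57 (FACS) and 7.38 and 7.87 (MACS) in Treg HAR cells, 7.95 and 7.99 (FACS) and 8.23 and 7.61 (MACS) in Treg hi cells, and 8.71 and 8.90 (FACS) and 8.79 and 8.60 (MACS) in naive cells. No Treg array reached the lowest naive array. The difference from naive cells was -1.05 ± 0.16 in Treg HAR cells (0.484-fold, adjusted p = 7.67e-04) and -0.80 ± 0.16 in Treg hi cells (0.573-fold, adjusted p = 0.00408). It was close to these values within each purification, with -1.02 (FACS) and -1.07 (MACS) for Treg HAR and -0.83 (FACS) and -0.77 (MACS) for Treg hi cells. Treg HAR and Treg hi arrays overlapped and differed by -0.24 ± 0.16 (95% interval -0.60 to 0.12, adjusted p = 0.714).

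**Figure D2:**
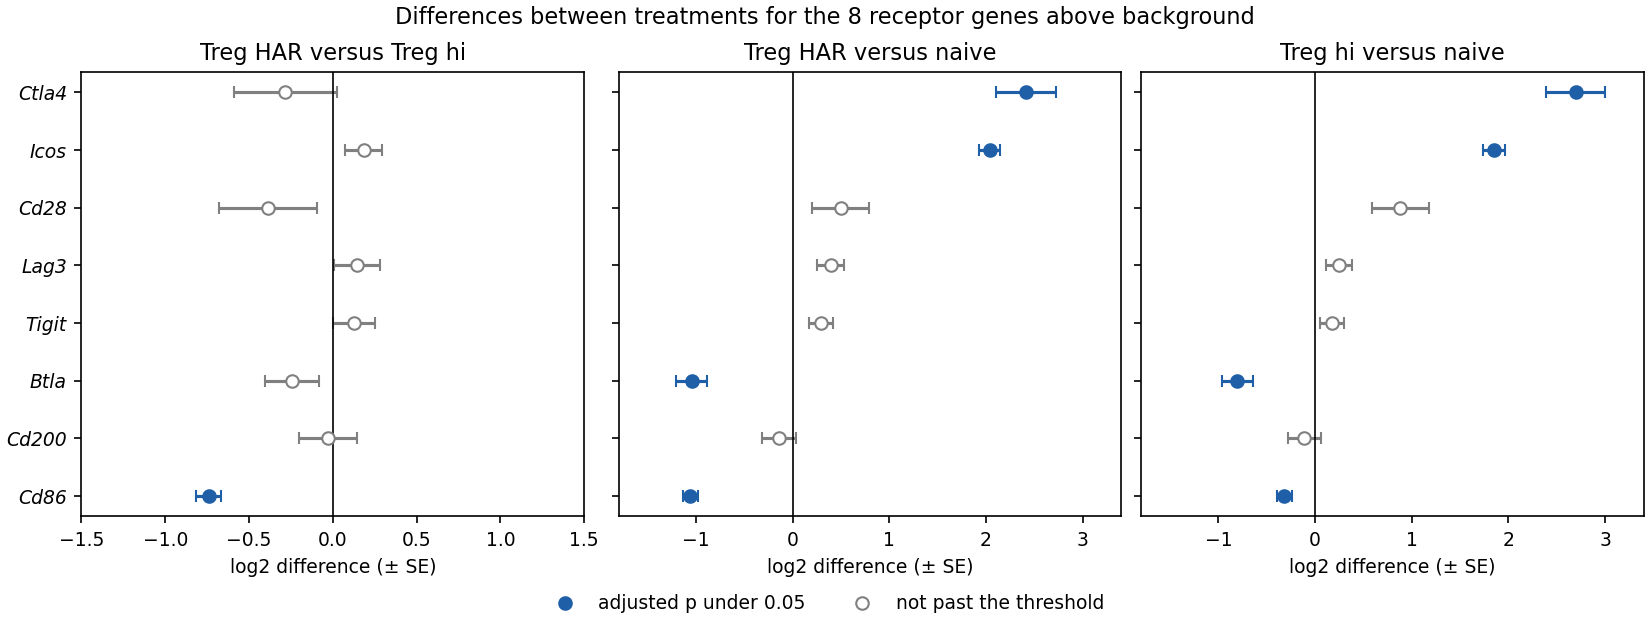
Log2 difference (horizontal axis, ± SE) of the 8 genes above background on at least 5 arrays, in Treg HAR versus Treg hi, Treg HAR versus naive and Treg hi versus naive cells. Filled points passed an adjusted p of 0.05. *Cd86* is the only filled point in the left panel, at -0.74, while *Ctla4* and *Icos* are to the right and *Btla* and *Cd86* to the left of 0 against naive cells.

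*Cd86*, a ligand of both CD28 and CTLA-4 that is best known from B cells and dendritic cells, was lower in Treg HAR than in Treg hi cells. Its brightest probe gave 6.43 and 6.34 (FACS) and 6.30 and 6.39 (MACS) in Treg HAR cells, 7.11 and 7.19 (FACS) and 6.98 and 7.14 (MACS) in Treg hi cells, and 7.01 and 6.90 (FACS) and 7.76 and 8.03 (MACS) in naive cells. The 4 Treg HAR arrays lay just above the background ceiling and below all other arrays, and replicates within a group differed little. In deposited intensity, already scaled but before the background correction and normalization used here, the same probe averaged 118 in Treg HAR cells, 174 in Treg hi cells and 216 in naive cells.

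The log2 difference of *Cd86* between Treg HAR and Treg hi cells was -0.74 ± 0.08 (SE, n = 4 arrays each), a 0.598-fold level with a 95% interval of -0.91 to -0.57 and an adjusted p of 0.00594. It was -0.77 in cells from FACS-purified and -0.71 in cells from MACS-purified precursors, where neither passed alone with 2 arrays a group (adjusted p = 0.0656 and 0.128). Of all genes 0.0255% passed within FACS and 0.0192% within MACS. All 4 Treg HAR arrays were below all 4 Treg hi arrays, a separation in one direction or the other that 6.56% of all genes showed. Either pair of the split Treg HAR arrays gave a difference past the threshold when the other pair was left out. It did not pass when the model held the treatment without the purification (-0.74, adjusted p = 0.133). Nor did it with the same model on the 6 arrays without signal of the Y-linked gene *Eif2s3y* (-0.66, adjusted p = 0.487). A second probe (ILMN_1217041) had 6.36 and 6.23 (FACS) and 6.18 and 6.36 (MACS) in Treg HAR cells against 6.92 and 6.77 (FACS) and 6.66 and 7.23 (MACS) in Treg hi cells, without overlap, and its difference of -0.61 ± 0.11 had an adjusted p of 0.073 over all probes. The third probe was above background on 4 of 12 arrays and differed by -0.13.

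*Cd86* differed from naive cells by -1.06 ± 0.08 in Treg HAR cells (0.480-fold, adjusted p = 5.91e-06) and by -0.32 ± 0.08 in Treg hi cells (0.802-fold, adjusted p = 0.0114). The Treg hi arrays overlapped with the naive arrays, because naive cells differed by purification. FACS-purified naive cells were lower than MACS-purified naive cells by a log2 difference of -0.93 ± 0.11 (adjusted p = 0.00207), in a comparison where 1.39% of all genes passed. Within FACS the difference from naive cells was -0.57 in Treg HAR cells (adjusted p = 0.00462, with 18.6% of all genes past the threshold) and 0.19 in Treg hi cells (adjusted p = 0.317, with 16.6%). Within MACS it was -1.55 in Treg HAR cells (adjusted p = 1.05e-05, with 20.2% of all genes past the threshold) and -0.83 in Treg hi cells (adjusted p = 5.23e-04, with 18.2%). The lower level in Treg hi than in naive cells was thus seen against MACS-purified naive cells and had the opposite sign against FACS-purified ones. The FACS difference minus the MACS difference passed for Treg HAR versus naive cells, where 0.543% of all genes did, and for Treg hi versus naive cells, where 0.562% did.

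Markers of B cells and myeloid cells moved with the purification of naive cells. The summed normalized intensity of 9 measured B cell markers was 1220 to 1590 in Treg HAR cells and 1310 to 1760 in Treg hi cells, against 2960 to 3420 in FACS-purified and 15700 to 19600 in MACS-purified naive cells, and 7 of the 9 were lower in FACS-purified than in MACS-purified naive cells. For 10 myeloid markers the sum was 585 to 639 in Treg HAR cells and 618 to 651 in Treg hi cells, against 2800 to 5840 in FACS-purified and 14200 to 30200 in MACS-purified naive cells. For 7 dendritic cell markers it was 1700 to 1830 in Treg HAR cells and 1520 to 1780 in Treg hi cells, against 1340 to 1370 in FACS-purified and 2280 to 2570 in MACS-purified naive cells. Such a sum is weighted to bright genes, here *Cst3*, whose difference between FACS and MACS did not pass (-0.94, adjusted p = 0.0545). Of the 10 myeloid markers 6 were lower in FACS-purified naive cells and of the 7 dendritic cell markers 1, with 0 higher, where 1.39% of all genes passed. Of these lists, *Cd74*, *H2-Ab1*, *Cst3* and *Siglech* were above background on all 12 arrays, *Cd79b* and *H2-Eb1* on 11 and *Batf3* on 10. The B cell factor *Pax5*, the dendritic cell genes *Zbtb46* and *Ccl22* and the myeloid integrin *Itgam* were so on 0. The part of these cells in the *Cd86* level of naive cells was not tested.

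Between the 2 kinds of Treg cells 1 of these markers passed the test, in a comparison where 0.466% of all genes passed. Of the 9 B cell markers 1 was lower in Treg HAR cells, the invariant chain *Cd74* (-0.52, adjusted p = 0.0472), and 0 of the 7 dendritic and 0 of the 10 myeloid markers passed. The dendritic cell factor *Batf3* had a difference of 1.25 ± 0.58 that did not pass (adjusted p = 0.491), with 6.36 to 9.13 in Treg HAR cells and 6.47 to 6.60 in Treg hi cells. In the B cell list, 2 of 9 markers were above background on all 4 Treg HAR arrays and 4 of 9 on all 4 Treg hi arrays. These included *Cd74* (7.64 to 7.98 in Treg HAR and 8.10 to 8.55 in Treg hi cells) and the MHC class II gene *H2-Ab1* (8.96 to 9.84 and 8.94 to 9.77). *Cd79b* (6.21 to 6.84 and 6.51 to 6.71) and *H2-Eb1* (6.13 to 6.60 and 6.32 to 6.54) were above background on 3 Treg HAR and 4 Treg hi arrays. *Ms4a1* was so on 1 Treg HAR and 0 Treg hi arrays, and *Cd22*, *Blk*, *Pax5* and *H2-Aa* on 0 of the 8 Treg arrays.

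**Figure D3:**
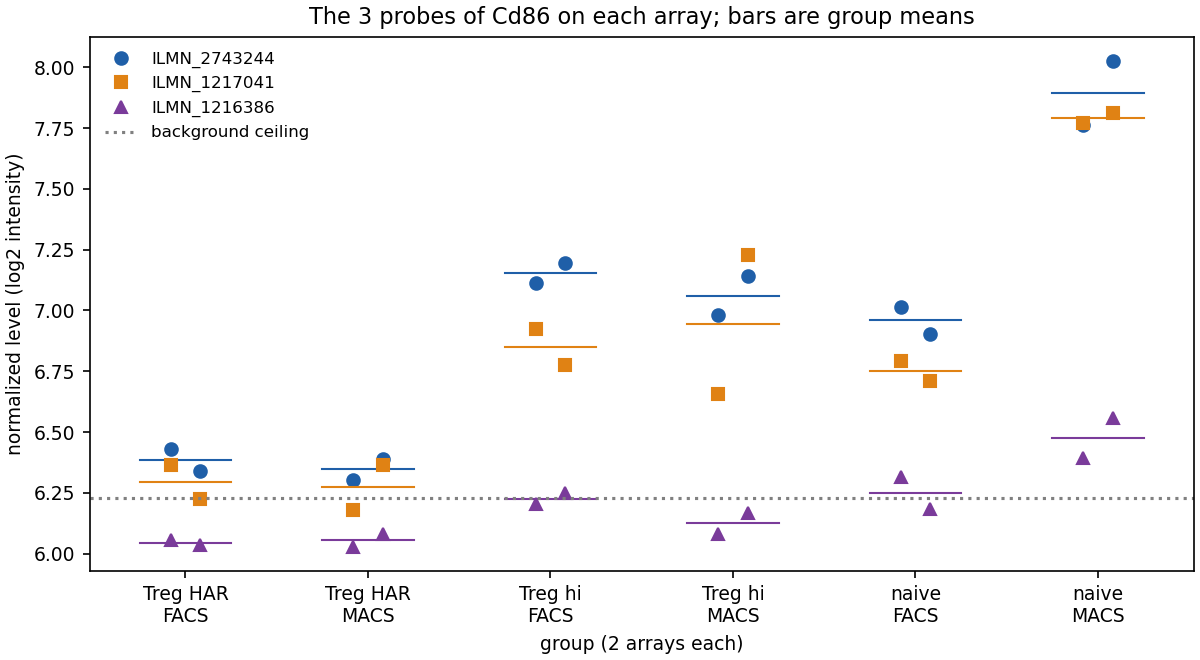
Normalized level (log2 intensity, vertical axis) of the 3 probes of *Cd86* on each array, by group of 2 arrays (horizontal axis), with group means as bars and the background ceiling as a dotted line. The 2 brighter probes are lowest in both Treg HAR groups (6.18 to 6.43) and highest in MACS-purified naive cells (7.76 to 8.03), and the dimmest probe stays near the ceiling.

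The genes whose level followed *Cd86* most closely over the 12 arrays were *Rassf4* (Pearson r = 0.924), *Zfp275* (0.923), *6330509M05Rik* (0.919), *Plekhm3* (0.917) and *Igsf3* (0.915), among 7800 genes above background on at least 6 arrays. The arrays share the 6 groups, so these values describe likeness of pattern, including the difference between FACS-purified and MACS-purified naive cells. *Rassf4* had a log2 difference of -0.73 between Treg HAR and Treg hi cells, about the size of that of *Cd86*, whereas *Zfp275* had -0.18.

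The other coinhibitory receptors were dim or changed little. *Lag3*, which binds MHC class II, had 7.12 and 7.01 (FACS) and 6.53 and 7.14 (MACS) in Treg HAR cells, 6.92 and 6.64 (FACS) and 6.91 and 6.74 (MACS) in Treg hi cells, and 6.15 and 6.44 (FACS) and 6.73 and 6.91 (MACS) in naive cells. All groups overlapped. Treg HAR cells differed from naive cells by 0.39 ± 0.14 (adjusted p = 0.0596), a difference of 0.77 within FACS (adjusted p = 0.0199) and 0.015 within MACS. Without Treg HAR MACS replicate 1, its lowest Treg HAR array, it was 0.55 and passed (adjusted p = 0.00536). Treg hi cells differed from naive cells by 0.25 ± 0.14 (adjusted p = 0.254), and Treg HAR from Treg hi cells by 0.15 ± 0.14 (95% interval -0.16 to 0.45).

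*Tigit*, a receptor for the poliovirus receptor CD155, lay at the limit of detection. Its levels were 5.98 and 6.65 (FACS) and 6.35 and 6.43 (MACS) in Treg HAR cells, 6.33 and 6.32 (FACS) and 6.21 and 6.04 (MACS) in Treg hi cells, and 5.995 to 6.13 in naive cells. It exceeded background on 3 Treg HAR, 2 Treg hi and 0 naive arrays. The level in Treg HAR cells was at least 1.09-fold that in naive cells, with naive arrays set to the background ceiling, and did not pass (adjusted p = 0.115). The value on Treg HAR FACS replicate 1 was the lowest of the 12 arrays, and the fitted difference from naive cells, whose arrays lay under the ceiling, moved between 0.13 and 0.46 according to which array was left out.

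*Pdcd1* had log2 levels of 5.90 to 6.09 in Treg HAR cells, 5.97 to 6.06 in Treg hi cells and 5.93 to 6.11 in naive cells, all under the ceiling, so no change in it could be measured. The brighter of 2 *Havcr2* probes exceeded the ceiling on MACS-purified naive replicate 2 alone, at 6.37. No fold is given for either gene between the 2 kinds of Treg cells.

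*Cd200* was well expressed and flat. Its brightest probe had 8.39 and 8.11 (FACS) and 7.96 and 8.45 (MACS) in Treg HAR cells, 8.23 and 8.04 (FACS) and 8.39 and 8.36 (MACS) in Treg hi cells, and 8.01 and 8.47 (FACS) and 8.15 and 8.84 (MACS) in naive cells. All groups overlapped. The differences were -0.03 ± 0.17 in Treg HAR versus Treg hi cells (95% interval -0.42 to 0.36), -0.14 ± 0.17 in Treg HAR versus naive cells and -0.11 ± 0.17 in Treg hi versus naive cells. Its other probes lay at 6.14 to 6.54 and under the ceiling on all arrays.

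Of 17 ligands and counter-receptors of these genes, all of them measured, 0 passed in Treg HAR versus Treg hi cells, where 0.466% of all genes did. In Treg HAR versus naive cells 2 were higher and 3 lower, with a list median of 0.04, and in Treg hi versus naive cells 2 were higher and 2 lower, with a median of 0.01. These 5 and 4 of 17 stand beside 27.5% and 26% of all genes. *Cd80*, which like *Cd86* encodes a ligand of CD28 and CTLA-4, was above background on all 8 Treg arrays and 0 naive arrays. It was at least 5.72-fold higher in Treg HAR cells (adjusted p = 9.20e-07) and at least 4.69-fold higher in Treg hi cells (adjusted p = 2.14e-06) than in naive cells. Between Treg HAR and Treg hi cells it differed by 0.29 ± 0.14 (adjusted p = 0.548), while *Cd86* had its lowest levels in Treg HAR cells.

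*Cd274*, which encodes the PD-1 ligand PD-L1, was lower than in naive cells by a log2 difference of -1.38 ± 0.12 in Treg HAR cells (adjusted p = 2.19e-05) and -0.99 ± 0.12 in Treg hi cells (adjusted p = 2.12e-04). In Treg HAR cells the difference was -1.28 within FACS and -1.48 within MACS, and in Treg hi cells -0.77 within FACS and -1.21 within MACS. *Lgals9*, which encodes the TIM-3 ligand galectin-9, differed by -0.61 and -0.78 in Treg HAR and Treg hi cells. *Tnfsf14*, the cytokine LIGHT that binds HVEM as BTLA does, was higher by 0.39 and 0.70. *Pvr*, which encodes CD155 and is named here after its values were seen, was lower than in naive cells by -0.36 in Treg HAR cells (adjusted p = 0.00737) and differed by -0.10 in Treg hi cells (adjusted p = 0.459), and between the 2 kinds of Treg cells it differed by -0.26 (adjusted p = 0.240).

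Of 27 other inhibitory or costimulatory immunoglobulin family receptors of T cells 20 were measured. In Treg HAR versus Treg hi cells 0 of them passed, beside 0.466% of all genes. Against naive cells 1 was higher and 7 lower in Treg HAR cells, with a list median of -0.18, and 2 were higher and 7 lower in Treg hi cells, with a median of -0.11. Of all genes 13.8% were higher and 13.7% lower in Treg HAR cells, and 12.8% and 13.2% in Treg hi cells. *Cd160*, like BTLA a receptor for HVEM, differed by -1.37 in Treg HAR and -1.39 in Treg hi cells. *Cd96*, which like TIGIT binds CD155, differed by -1.33 and -1.08. The SLAM family receptor *Ly9* differed by -1.12 and -1.04, and *Pecam1*, an adhesion receptor with inhibitory motifs, by -1.22 and -0.76. The *Cd160* difference was -0.75 within FACS and -1.99 within MACS in Treg HAR cells, and -0.79 and -1.99 in Treg hi cells. No test of this gap between the purifications is given. The 8 measured markers of CD8 T and NK cells, which also express *Cd160*, summed to 3070 to 3800 in Treg HAR cells and 2390 to 2690 in Treg hi cells, against 3090 to 3790 in FACS-purified and 5760 to 5800 in MACS-purified naive cells. This sum mixes directions. Against naive cells *Cd8b1* was higher in Treg HAR cells (0.99, adjusted p = 1.23e-05) while 3 of the 8 were lower, and 1 was higher and 5 lower in Treg hi cells. Between FACS-purified and MACS-purified naive cells 1 of the 8 passed, as lower in FACS, where 1.39% of all genes passed. The part of CD8 T and NK cells in the *Cd160* differences was not tested. *Slamf1*, named after its values were seen, was higher by 0.61 and 0.72.

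Of 32 signalling and trafficking partners 28 were measured, and 0 passed in Treg HAR versus Treg hi cells, where 0.466% of all genes did. Against naive cells 1 was higher and 7 lower in Treg HAR cells (median -0.16), and 1 higher and 9 lower in Treg hi cells (median -0.10). These 8 and 10 of 28 stand beside 27.5% and 26% of all genes. *Trat1*, an adaptor that stabilises the T cell receptor and CTLA-4 at the cell surface, had the largest difference of this list, -1.75 ± 0.13 in Treg HAR cells (adjusted p = 7.82e-06) and -1.78 ± 0.13 in Treg hi cells (adjusted p = 7.66e-06). *Ptpn6*, the phosphatase SHP-1 that inhibitory receptors recruit, differed by -0.60 in Treg HAR and -0.56 in Treg hi cells. *Bcl10*, a link to NF-κB, and the kinase *Fyn* differed by -0.65 and -0.46 in Treg HAR cells. The lipid kinase subunit *Pik3cd* and the kinase *Tbk1* differed by -0.60 and -0.54 in Treg hi cells. *Ubash3b*, a phosphatase named after its values were seen, passed as higher in both but was above background on only 2 Treg HAR, 3 Treg hi and 0 naive arrays. Its level was at least 1.08-fold that of naive cells in Treg hi cells, and no bound above 1 could be given for Treg HAR cells.

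**Figure D4:**
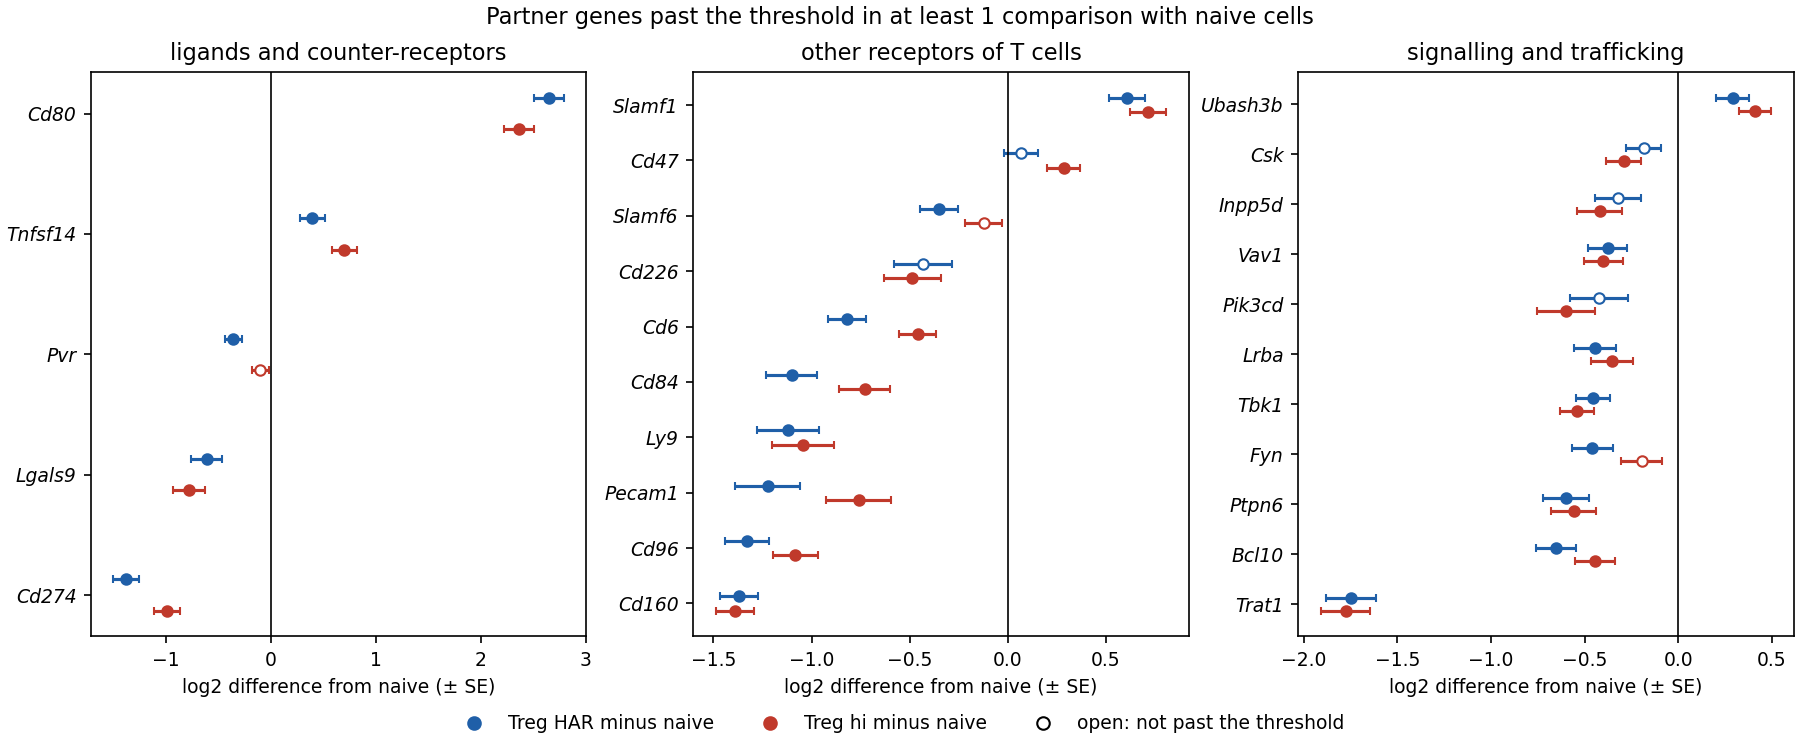
Log2 difference from naive cells (horizontal axis, ± SE) of the partner genes that passed the threshold in at least 1 comparison with naive cells, in 3 lists. Blue points are Treg HAR minus naive and red points Treg hi minus naive, and open points did not pass. *Cd80* is farthest to the right, at 2.65 and 2.36 as fitted, and *Trat1* farthest to the left, at -1.75 and -1.78.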

How the data were processed

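RNA of 12 samples was labelled and hybridised to Illumina Mouse WG-6 v2 arrays, and the authors deposited the probe intensity values read out with GenomeStudio, not normalized. The mean intensity was 257 on every array, so these values had been scaled. The authors also deposited normalized log2 values made with the package lumi, which were used only as an alternative. Relative to the mean of all arrays, each array's log2 intensity correlated with its own normalized column (r of 0.894 to 0.997) more than with any other (at most 0.855).

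Intensities were corrected with the normexp model of limma 3.58.1 (R 4.3.3, offset 50), quantile normalized and taken to log2. Probes above the array median on at least 2 arrays were kept (32081 of 45281). Each gene was represented by its kept probe with the highest mean, which gave 15663 genes. Probes of several genes (18) or of none (10378) were left out. A linear model with 6 group means was fitted to the 12 arrays (two-sided moderated tests, Benjamini-Hochberg adjustment over all genes), and a treatment difference averages those within FACS and within MACS. The fitting script was also tested on simulated data. Differences are the group named before minus the group named after "versus" or "than". The background ceiling lay 3 SDs of the dimmest values above the mode of each array, and a fold whose dimmer group was wholly under it is written as "at least". The number of arrays limits the precision. Levels of different probes are not comparable.

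The 10 genes, the lists and the markers were chosen with earlier results of these data known. All 10 genes are described. From each list up to 4 genes past the threshold by size of change are named per comparison, with those outside this rule marked, and for *Cd86* the 5 genes most like it. Alternatives covered the background correction, the offset, the normalization, the probe filter and choice of probe, the design and the arrays entered. Protein sequences were not used here.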

Additional observations from a re-analysis of the deposited data

Results flagged for a closer look

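The difference of *Cd86* from naive cells depended on how the precursors had been purified. The FACS difference minus the MACS difference was 0.9751 for Treg HAR versus naive cells (adjusted p = 0.0248, limma interaction term, with 0.543% of all genes past the threshold) and 1.027 for Treg hi versus naive cells (adjusted p = 0.0191, with 0.562% of all genes). The naive arrays carried it: *Cd86* differed between FACS and MACS by 0.04 in Treg HAR cells and 0.09 in Treg hi cells, against -0.93 in naive cells. Under 22 alternatives the interaction kept its sign and passed in 11 for Treg HAR and in 16 for Treg hi versus naive cells. Leaving out 1 array at a time gave adjusted p-values of 0.0069 to 0.134 and 0.00552 to 0.117. B cell and myeloid markers moved the same way between FACS-purified and MACS-purified naive cells, and their part was not tested.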

How the results depend on the processing

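*Ctla4*, *Icos* and *Btla* passed against naive cells in both kinds of Treg cells under all 29 alternatives, and so did *Cd86* in Treg HAR versus naive cells. *Cd86* passed in 25 of 29 in Treg HAR versus Treg hi cells, over a range of -1.10 (offset of 16) to -0.46 (deposited log2 values), and in 26 of 29 in Treg hi versus naive cells. The number of the 10 genes past the threshold in Treg HAR versus Treg hi cells was 0 with treatment as the only term, 0 on arrays without *Eif2s3y*, 0 within FACS and 0 within MACS. The fit on arrays without *Eif2s3y* also had treatment as the only term, and fewer arrays. Without a term for purification, the *Cd86* difference between purifications of naive cells is part of the error. The comparisons within FACS and within MACS came from the main fit, with 2 arrays a group. Why *Cd86* did not pass in these settings was not tested. Leaving out 1 array at a time gave 1 to 1 genes in Treg HAR versus Treg hi, 4 to 5 in Treg HAR versus naive and 4 to 5 in Treg hi versus naive cells. Over all genes, the 73 calls in Treg HAR versus Treg hi cells became 2 on arrays without *Eif2s3y* and 523 without Treg HAR FACS replicate 2 and MACS replicate 1, and 9 to 140 when 1 array was left out.

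Signs changed only among differences that had not passed, apart from *Cd86* in Treg hi versus naive cells (0.194 within FACS). In Treg HAR versus Treg hi cells they were *Tigit* (-0.0138) and *Cd200* (0.115) within FACS, *Ctla4* (0.339) within MACS, *Ctla4* (0.274), *Cd28* (0.0968) and *Lag3* (-0.0329) without Treg HAR FACS replicate 1 and MACS replicate 2, and *Tigit* (-0.0201) and *Cd200* (0.163) without the other 2 arrays. Against naive cells *Cd200* changed sign in Treg HAR cells within FACS (0.00981), on arrays without *Eif2s3y* (0.171) and without Treg HAR FACS replicate 2 and MACS replicate 1 (0.0526), and in Treg hi cells on arrays without *Eif2s3y* (0.231). With 1 array left out, the ranges in Treg HAR versus Treg hi cells were -0.625 to 0.0556 for *Ctla4*, -0.0411 to 0.293 for *Tigit*, -0.00685 to 0.298 for *Lag3* and -0.153 to 0.0923 for *Cd200*, and for *Cd200* against naive cells -0.314 to 0.0319 in Treg HAR and -0.284 to 0.0622 in Treg hi cells. *Cd28* in Treg hi versus naive cells passed in 13 of 29 alternatives, *Lag3* in Treg HAR versus naive cells in 6 and *Tigit* in 2. The cause was not tested. The settings without 2 Treg HAR arrays, and all those for the interaction of *Cd86*, were chosen after seeing the data.

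The replicate numbers did not pair the samples across all groups. Of 15 correlations between same-numbered deviations 6 exceeded 0.1, and the lowest, -0.622, was between the Treg HAR groups. The highest, 0.423, was between the FACS-purified and MACS-purified naive cells, where the number also went with *Xist* and *Eif2s3y*. In Treg hi cells the number went with *Eif2s3y* as well. Treg hi MACS arrays had 0.357 with FACS-purified and 0.263 with MACS-purified naive cells. Treg hi FACS arrays had 0.00735 and -0.00313 with these, and -0.106 with Treg hi MACS arrays. A pairing of naive and Treg hi samples alone was not tested. With the replicate number as a block, 1 of the 10 genes passed in Treg HAR versus Treg hi, 4 in Treg HAR versus naive and 4 in Treg hi versus naive cells, and *Cd86* had -0.74 (adjusted p = 0.0106) in the first. The block moved the calls over all genes to 39 in that comparison. Probes near background, among them those of *Cd86* in Treg HAR cells, *Tigit* and *Havcr2*, limit what can be measured, and *Pdcd1* could not be compared.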
